A study of Mus musculus with 6 samples.

Results

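The genes described here encode enzymes that write and erase methyl groups on histones and DNA, enzymes that remove acetyl groups from proteins, and the Polycomb and heterochromatin proteins that act with them. Their names were picked by family: the lysine methyltransferases Kmt and Setd, the lysine demethylases Kdm, the numbered deacetylases Hdac, the DNA methyltransferases Dnmt and the dioxygenases Tet1 to Tet3, with Ezh1, Ezh2, the numbered Cbx genes, Eed, Suz12, Bmi1, Ring1, Rnf2 and the acetyltransferases Ep300 and Crebbp. This gave 74 of the 48397 gene names in the count tables. Of these, 67 were classed as enzyme or complex genes, in 15 classes, and 7 as antisense loci, pseudogenes or gene copies that carry a family name. The source was islets of Langerhans isolated from C57B6 mice of wild type, which hold hormone cells, beta cells above all, beside vessel, duct and connective tissue cells. After a night of recovery in RPMI-1640 medium with 10% FBS, they stayed for 24 h with the solvent DMSO (control, 3 libraries) or with recombinant mouse prolactin at 500 ng/mL (3 libraries). Islets as labelled are of mixed cell type, and the labels used here name neither the age of the animals nor the origin of each replicate; the p-values therefore reflect the spread of these 6 libraries, which may be technical.

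Methyl and acetyl groups on histone tails mark which genes are open to transcription. Methylation of lysine 4 of histone H3 (H3K4) goes with active promoters and enhancers, while methylation of H3K27 by Polycomb complex 2 and of H3K9 goes with silent genes, and each mark has its own erasers. DNA methylation by the DNMT enzymes adds a layer that is copied at cell division. In beta cells EZH2 and BMI1 are known for holding down the cell-cycle inhibitor locus Cdkn2a, DNMT3A for holding down genes of immature metabolism, and the menin protein for working with the H3K4 methyltransferase KMT2A. Prolactin drives the growth of beta cells in pregnancy, and the study is about its receptor, chromatin changes in beta cells and the factor OVOL2.

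Levels are given as CPM, read counts set relative to the scaled size of each library, and changes as log2 ratios of prolactin over control from edgeR's quasi-likelihood test, with Benjamini-Hochberg adjustment over all tested genes. A gene is said to have risen or fallen only at an adjusted p under 0.05. The libraries held between 230833584 and 530296257 reads counted to genes, and control replicate 1 was the deepest. Markers of beta cells, the insulin genes among them, summed to between 116500 and 142900 CPM in all 6 libraries, so that the islet label holds. Acinar markers, genes of digestive enzyme cells, varied from 405 to 2397 CPM within the control group alone and from 663 to 1629 CPM in prolactin. In bulk RNA, fewer cells of a type and less RNA per cell cannot be told apart.

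No gene of these families passed the threshold in the main test. So few genes passed over the whole series that 0 here is near their share, and small changes may go uncalled. Of the 74 names, 72 passed the filter on low counts, and 0 of them rose or fell, where 0.652% of all 23924 tested genes rose and 0.104% fell (0.757% in either direction). At an unadjusted p under 0.05, 3 of the 72 were higher (Dnmt3b, Dnmt3bos and Kdm6b) and 4 lower (Kdm1b, Setd6, Cbx2 and Bmi1), against 7.78% higher and 6.68% lower of all tested genes. In the authors' deposited table, 2 of 69 genes with an adjusted p were higher (Dnmt3b and Dnmt3bos) and 1 lower (Kdm1b), 4.35% against 5.71% of all genes with an adjusted p there. DESeq2 run on the counts called the same 3 genes, and limma-voom called 0. The 3 prolactin libraries lay above the 3 control libraries in 4 of the 72 genes and below them in 9. Over all tested genes these shares were 11.3% above and 10.4% below.

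The measurements were precise enough to bound most changes between these libraries, whose spread may be technical. The median SE of a log2 change was 0.075 over the 72 genes. For 64 of them the 95% interval of the change lay wholly within 1.5-fold in both directions, and for 41 within 1.2-fold. The 8 exceptions were Dnmt3b, Dnmt3l and 6 of the antisense loci, pseudogenes and copies. Among genes of like abundance (a mean of 5 to 250 CPM), 98.4% of the 63 family members and 95.7% of 11098 tested genes had an interval within 1.5-fold. The median log2 change of the 72 was 0.02, with 41 positive and 31 negative, beside a median of 0.00 over all tested genes, of which 11980 were positive and 11944 negative. The median of the 72 was -0.019 without control replicate 1 and 0.067 without control replicate 3.

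**Figure D1:**
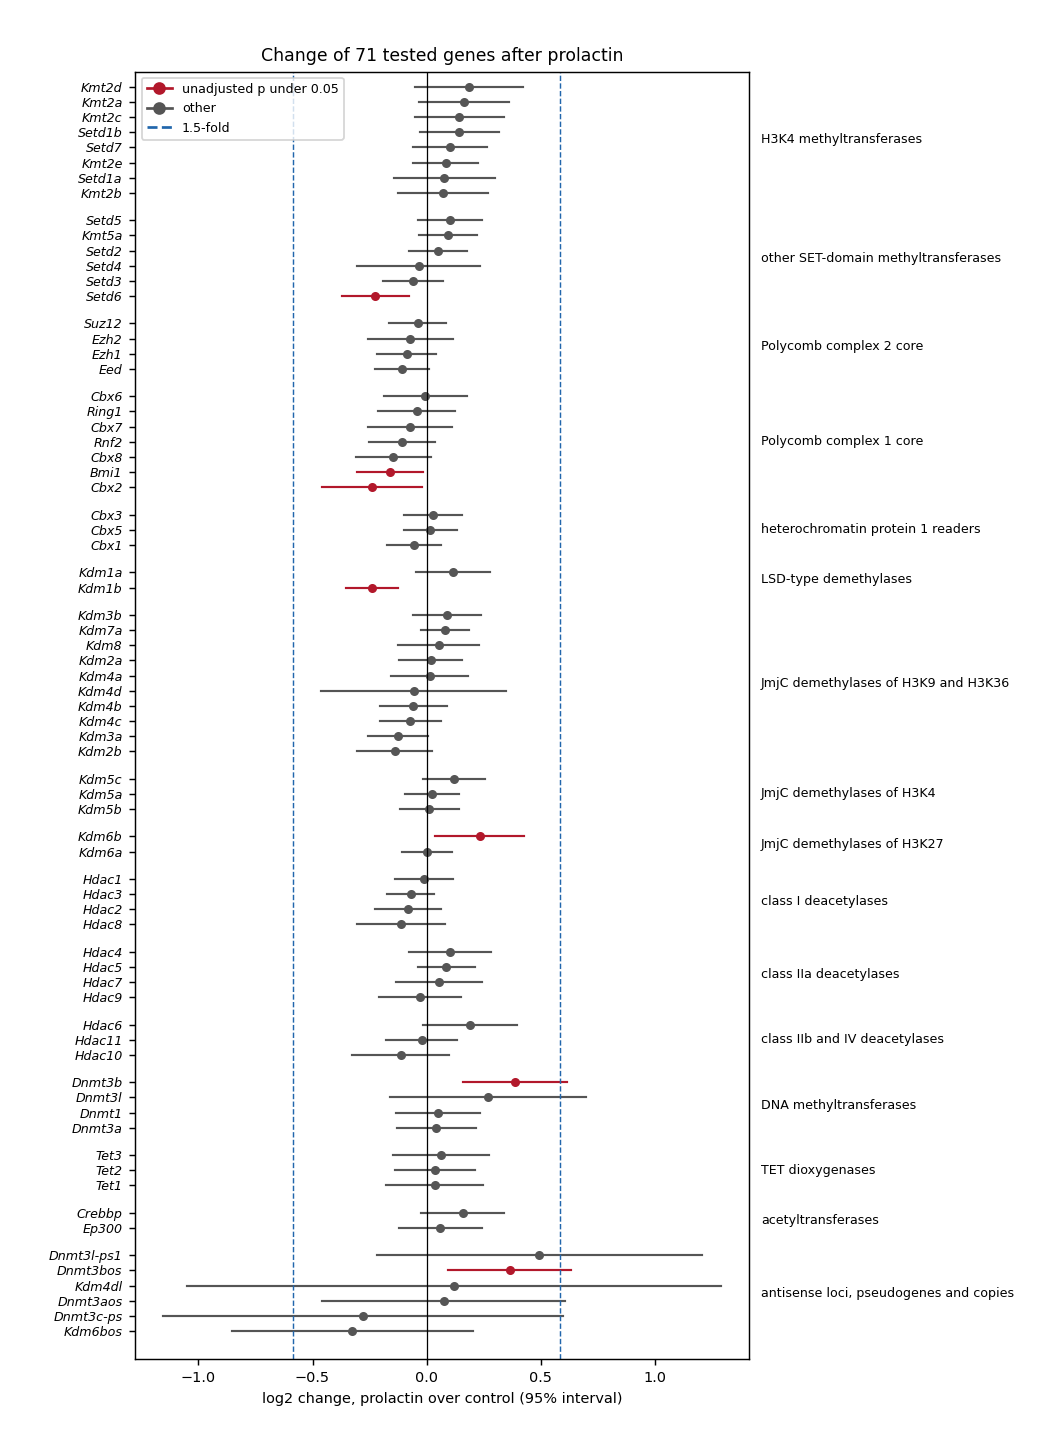
Log2 change of prolactin over control (x axis) for 71 of the 72 tested genes, grouped by class. Points are edgeR estimates and lines their 95% intervals; red marks an unadjusted p under 0.05 and dashed lines mark 1.5-fold. The intervals of 63 of the genes drawn lie between the dashed lines, and the long intervals at the bottom belong to loci with few reads.

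The smallest p of the whole group belonged to Kdm1b (chromosome 13, 47043499 to 47084613, mm10), which encodes LSD2, a flavin-dependent H3K4 demethylase known for its part in setting maternal imprints in oocytes. It stood at 23.2, 24.0 and 24.0 CPM in control and 20.1, 20 and 20.1 CPM in prolactin. All 3 prolactin libraries were lower, and they differed from each other by less than the controls did. The mean was 23.7 ± 0.441 CPM in control and 20.1 ± 0.0646 CPM in prolactin (SD, n = 3 each), a difference of -15.3% that did not pass (adjusted p = 0.0763 for a log2 change of -0.24 with an SE of 0.0502 and a 95% interval of -0.35 to -0.13). It did pass in the authors' deposited table (log2 fold change -0.24, adjusted p = 0.0141) and with a filter of 1 CPM in 3 libraries (adjusted p = 0.0483). Its change lay between -0.25 and -0.23 in every fit that left out 1 library. Its relative Kdm1a, the LSD1 enzyme of the CoREST corepressor, was 25.5 CPM per kilobase against 4.53 for Kdm1b; the level of Kdm1a was the fifth highest mean of the 74. Kdm1a measured 116, 133 and 132 CPM in control and 129, 142 and 141 CPM in prolactin, and its groups overlapped (adjusted p = 0.507 for a log2 change of 0.12 with an SE of 0.0711). Per kilobase, the ratio of Kdm1a to Kdm1b was 4.64, 5.17 and 5.14 in control and 5.97, 6.62 and 6.55 in prolactin.

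Dnmt3b (chromosome 2, 153649450 to 153687730) had the largest change of the enzyme genes. It encodes an enzyme that places new methyl groups on DNA, and measured 7.32, 8.08 and 8.86 CPM in control and 9.28, 11.3 and 11.1 CPM in prolactin. Each prolactin library was above each control library, prolactin replicate 1 being the nearest to them. Mean and SD were 8.09 ± 0.773 CPM in control and 10.6 ± 1.12 CPM in prolactin, a difference of 30.8% (adjusted p = 0.136 for a log2 change of 0.39 with an SE of 0.101 and a 95% interval of 0.16 to 0.62). That did not pass in the main test, whereas it passed in the authors' deposited table (log2 fold change 0.39, adjusted p = 0.00794) and with no filter (adjusted p = 0.0406). Leaving out single libraries moved the change between 0.32 and 0.47. The antisense locus Dnmt3bos (chromosome 2, 153648690 to 153650286), which starts beside Dnmt3b on the other strand, read 3.05, 3.14 and 2.91 CPM in control and 3.39, 4.52 and 3.80 CPM in prolactin. Its groups did not overlap either, and its change was close to that of Dnmt3b (adjusted p = 0.216 for a log2 change of 0.36 with an SE of 0.120; authors' deposited table: log2 fold change 0.37, adjusted p = 0.0455). The locus shares 0 exon bases with Dnmt3b, but 236 of its 718 exon bases (32.9%) lie within the span of Dnmt3b, and counting without strand cannot part unspliced Dnmt3b reads there from its own.

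All 4 genes of the DNA methyltransferase class had positive changes, with a median of 0.16, and 2 of the 4 were negative without control replicate 1. The gene copy Dnmt3c-ps, classed apart and under 1 CPM, had a log2 change of -0.28. Dnmt3a, the more abundant de novo enzyme, measured 161, 180.3 and 192 CPM in control and 171, 190.4 and 188 CPM in prolactin, and the groups overlapped (adjusted p = 0.844 for a log2 change of 0.04 with an SE of 0.0767). Without control replicate 1 its change was -0.02. Per kilobase Dnmt3a exceeded Dnmt3b by 6.75, 6.85 and 6.66 times in control and by 5.66, 5.17 and 5.20 times in prolactin. The ratio was lower in each prolactin library than in any control. Dnmt1, which copies methylation at cell division, was the highest of the family per kilobase (11.5 CPM per kilobase, against 10.8 for Dnmt3a and 1.83 for Dnmt3b) and measured 64.4, 68.2 and 81.0 CPM in control and 72.9, 73.4 and 75.0 CPM in prolactin. Control replicate 3 was highest, control replicate 1 lowest, and the prolactin libraries lay between them (adjusted p = 0.82 for a log2 change of 0.05 with an SE of 0.0811). Markers of dividing cells were likewise highest in control replicate 3, where their summed level was 171 CPM, against 146 and 152 in the other controls and 128 to 142 in prolactin; their part in the Dnmt1 values was not tested. Dnmt3l, a partner of the de novo enzymes without catalysis of its own, was under 1 CPM in every library (log2 change 0.27, adjusted p = 0.57), and its exons overlap those of Aire on the other strand.

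The starts of the genes with the 3 smallest p-values among enzymes are shown. CpG sites, the bases that DNMT enzymes can methylate, crowd there, but their methylation was not measured in these RNA libraries. Each line gives 250 bases before and 50 after a RefSeq start (GRCm38.p6, 5′ to 3′ along the gene), with every CpG in capitals. The regions are chr13:47043249-47043548 for Kdm1b, chr2:153649199-153649498 for Dnmt3b and chr8:95715663-95715962 for Setd6, all on the plus strand.
Kdm1b: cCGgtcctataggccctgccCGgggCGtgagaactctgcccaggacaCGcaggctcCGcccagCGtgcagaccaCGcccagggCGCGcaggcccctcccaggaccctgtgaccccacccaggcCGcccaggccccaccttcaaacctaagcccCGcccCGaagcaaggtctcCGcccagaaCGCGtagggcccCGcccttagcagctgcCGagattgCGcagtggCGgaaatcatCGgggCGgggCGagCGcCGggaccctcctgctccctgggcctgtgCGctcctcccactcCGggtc
Dnmt3b: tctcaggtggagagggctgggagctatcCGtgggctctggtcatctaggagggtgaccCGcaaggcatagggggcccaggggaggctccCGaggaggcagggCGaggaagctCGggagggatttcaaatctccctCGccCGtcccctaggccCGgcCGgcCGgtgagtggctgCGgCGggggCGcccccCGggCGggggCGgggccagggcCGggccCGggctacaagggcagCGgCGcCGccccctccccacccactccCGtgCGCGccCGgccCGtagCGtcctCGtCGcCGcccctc
Setd6: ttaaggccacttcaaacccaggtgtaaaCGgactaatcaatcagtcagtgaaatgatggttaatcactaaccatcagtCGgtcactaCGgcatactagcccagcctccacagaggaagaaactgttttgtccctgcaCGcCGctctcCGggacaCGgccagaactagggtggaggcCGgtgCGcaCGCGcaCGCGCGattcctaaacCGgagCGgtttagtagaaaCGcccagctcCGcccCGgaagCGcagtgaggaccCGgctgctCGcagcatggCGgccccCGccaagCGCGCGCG
They hold 26, 30 and 28 CpG sites. Among all 32851 promoters of the table the median was 7, and among the 76 promoters of the 55 family members found in it the median was 25. A ratio of observed to expected CpG above 0.6, a common mark of CpG islands, was reached by 76.3% of the 76 and by 35.8% of all promoters. The set of all promoters was not limited to genes expressed in islets.

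Setd6 (chromosome 8, 95715915 to 95719010) encodes a methyltransferase known for modifying the NF-kappaB subunit RelA. It measured 17.3, 17.1 and 18.5 CPM in control and 16.1, 14.8 and 14.5 CPM in prolactin. The prolactin libraries were all lower, replicate 1 the least so. Mean and SD were 17.7 ± 0.742 CPM in control and 15.1 ± 0.853 CPM in prolactin, a difference of -14.4% (adjusted p = 0.169 for a log2 change of -0.23 with an SE of 0.0653). It did not pass here, nor in the authors' deposited table (log2 fold change -0.22, adjusted p = 0.0699). The other 5 SET-domain genes outside the H3K4 group ranged from -0.06 to 0.10: Setd2, the enzyme of H3K36 trimethylation, had a log2 change of 0.05, Kmt5a, which places the first methyl group on H4K20, 0.10, Setd4 -0.04 and Setd5 0.10. Setd3, known for methylating actin on a histidine, was the most abundant of them at 27.2 CPM per kilobase. It measured 162, 176 and 165 CPM in control and 154, 165 and 164 CPM in prolactin, with prolactin replicate 1 lowest and the groups overlapping (adjusted p = 0.696 for a log2 change of -0.06 with an SE of 0.0581).

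All 8 genes of H3K4 methylation had positive changes, none past the threshold, with a median log2 change of 0.12. The class holds the large KMT2 proteins, the SETD1 enzymes of bulk promoter methylation, and SETD7, which adds a single methyl group. Kmt2a (chromosome 9, 44803355 to 44881296) had the smallest p and measured 166, 175 and 208 CPM in control and 193, 208 and 214 CPM in prolactin. The 2 lowest values were control replicates 1 and 2, and control replicate 3 lay inside the prolactin range (adjusted p = 0.428 for a log2 change of 0.16 with an SE of 0.0867). Kmt2e, whose protein binds methylated H3K4, was the most abundant per kilobase (14.1 CPM per kilobase) and measured 134, 144 and 151 CPM in control and 144, 154 and 156 CPM in prolactin. Its groups overlapped as well (adjusted p = 0.601 for a log2 change of 0.08 with an SE of 0.0628), and its exons overlap those of Srpk2 on the other strand. The rest were Kmt2b (log2 change 0.07), Kmt2c (0.14) and Kmt2d (0.19), of which the last pair is known for enhancer marks, Setd1a (0.08), Setd1b (0.14) and Setd7 (0.10). Control replicate 1 was the lowest of the 6 libraries in all 8 genes, against 23.5% of all tested genes averaging 1 CPM or more. Without that library 6 changes were positive and 2 negative, and the median became 0.06; without control replicate 3 it was 0.21.

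The changes of the core Polycomb genes were all negative, and none passed. Among genes of partner proteins, 7 of 8 for complex 2 and 4 of 13 for complex 1 had positive changes. The medians were -0.08 over the 4 core genes of Polycomb complex 2 and -0.09 over the 8 of complex 1. Over all tested genes of like abundance, 6141 of 11098 changes were negative. All 4 of complex 2 stayed negative in each fit without 1 library; in complex 1, 3 turned positive without control replicate 3 and 1 without control replicate 2 or prolactin replicate 1. Upper-quartile scaling and the 1 CPM filter each turned 1 of them positive.

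In Polycomb complex 2, which methylates H3K27, Eed, the subunit that reads the finished mark, measured 28.9, 28.4 and 27.2 CPM in control and 26.4, 25.4 and 26.8 CPM in prolactin. The prolactin libraries were all lower, with a fitted difference of -7.07% (adjusted p = 0.398 for a log2 change of -0.11 with an SE of 0.0522), and E230029C05Rik overlaps its exons on the other strand. Suz12, the scaffold, was the most abundant member per kilobase (13.3 CPM per kilobase) and measured 62.5, 69.1 and 67.7 CPM in control and 63.1, 65.0 and 65.9 CPM in prolactin. Its groups overlapped (adjusted p = 0.802 for a log2 change of -0.04 with an SE of 0.0552). The catalytic subunit Ezh2 was sparse, at 8.89, 8.77 and 10.1 CPM in control and 9.28, 8.22 and 8.91 CPM in prolactin. Control replicate 3 was highest, as it was in the dividing-cell markers, and the groups overlapped (adjusted p = 0.751 for a log2 change of -0.07 with an SE of 0.083). Its relative Ezh1, the form typical of cells that do not divide, exceeded it per kilobase by 6.20, 6.13 and 6.01 times in control and by 5.63, 6.49 and 6.05 times in prolactin, with a log2 change of -0.09 (adjusted p = 0.54).

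Polycomb complex 1 attaches ubiquitin to histone H2A through Ring1 and Rnf2, with BMI1 as their partner and CBX proteins as readers of H3K27 methylation. Bmi1 (chromosome 2, 18677018 to 18686629) measured 91.9, 105 and 91.4 CPM in control and 83.9, 85.7 and 88.4 CPM in prolactin. The prolactin libraries were all lower, though the gap to control replicates 1 and 3 was small beside the distance of replicate 2 from them (adjusted p = 0.304 for a log2 change of -0.16 with an SE of 0.0648). Cbx2 (chromosome 11, 119022962 to 119031270) was the sparsest CBX gene of the complex and measured 3.85, 4.52 and 4.35 CPM in control and 3.53, 3.50 and 3.73 CPM in prolactin. Every prolactin library was below every control, control replicate 1 being the nearest (adjusted p = 0.302 for a log2 change of -0.24 with an SE of 0.0969). Cbx6, the most abundant gene of the class (26.0 CPM per kilobase), measured 146, 170.2 and 176 CPM in control and 154, 170.5 and 166 CPM in prolactin, and prolactin values fell inside the control range (adjusted p = 0.985 for a log2 change of -0.005 with an SE of 0.0794). Cbx8 was lower in all 3 prolactin libraries with a log2 change of -0.15 (adjusted p = 0.4). Other changes in the complex were -0.11 for Rnf2, -0.07 for Cbx7 and -0.04 for Ring1. The 3 heterochromatin proteins, whose chromodomain binds methylated H3K9, did not pass. Cbx5 measured 138, 143 and 137 CPM in control and 137, 145 and 141 CPM in prolactin (adjusted p = 0.919 for a log2 change of 0.02 with an SE of 0.0513), and Cbx1 50.1, 53.9 and 51.1 CPM in control and 49.1, 51.4 and 48.6 CPM in prolactin (adjusted p = 0.679 for a log2 change of -0.06 with an SE of 0.0523). Cbx3 had a log2 change of 0.03, and the 95% intervals of all 3 lay within 1.2-fold.

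Neither H3K27 demethylase passed with all 6 libraries. Kdm6b (chromosome 11, 69398508 to 69413675) encodes JMJD3, known as the inducible form, and measured 98.2, 105 and 123 CPM in control and 119, 133 and 131 CPM in prolactin. Control replicate 3 lay inside the prolactin range, so the groups overlapped (adjusted p = 0.268 for a log2 change of 0.23 with an SE of 0.0859, 95% interval 0.04 to 0.43). Without control replicate 3 the log2 change was 0.33 and Kdm6b passed (adjusted p = 0.0464). Its antisense locus Kdm6bos, with 34.0% of its exon bases inside Kdm6b exons, had a log2 change of -0.33 (adjusted p = 0.579) at under 1 CPM. Kdm6a, the X-linked relative UTX, had a log2 change of 0.003 with a 95% interval of -0.11 to 0.11.

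Among the JmjC demethylases of H3K9 and H3K36, 5 of 10 changes were positive and 5 negative, with none past the threshold. Kdm3a, an H3K9 demethylase known to be raised by low oxygen, had the smallest p and measured 58.3, 51.4 and 55.9 CPM in control and 50.4, 51.4 and 50.1 CPM in prolactin. Control replicate 2 was only just above the prolactin libraries (adjusted p = 0.367 for a log2 change of -0.12 with an SE of 0.0576). Kdm4a was the most abundant (18.0 CPM per kilobase) and measured 95.9, 98.5 and 116 CPM in control and 102, 105 and 106 CPM in prolactin. Its prolactin libraries lay inside the control range (adjusted p = 0.957 for a log2 change of 0.01 with an SE of 0.0751). Kdm7a was higher in all 3 prolactin libraries by a small margin (log2 change 0.08, 95% interval -0.03 to 0.18). Kdm2b had a log2 change of -0.14, Kdm3b 0.09, Kdm4b -0.06, Kdm4c -0.07, Kdm2a 0.02, Kdm8 0.05, and Kdm4d -0.06 at under 1 CPM. The class median was -0.02, and 0.05 without control replicate 3.

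The KDM5 enzymes, which erase H3K4 methylation, had changes between 0.01 and 0.12. Kdm5c, on the X chromosome, was the most abundant at 23.7 CPM per kilobase and measured 155, 157 and 173 CPM in control and 179.5, 172 and 175 CPM in prolactin. Prolactin replicate 2 fell just under control replicate 3, and the rest of the prolactin libraries were above all controls (adjusted p = 0.4 for a log2 change of 0.12 with an SE of 0.0596). Kdm5a had a log2 change of 0.02 and Kdm5b of 0.01. Their Y-linked relative Kdm5d did not pass the filter: it had 3 reads in each of control replicates 1 and 2 and 0 in the other 4 libraries. That is at or under a floor of 3 reads per library, so no fold is given.

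**Figure D2:**
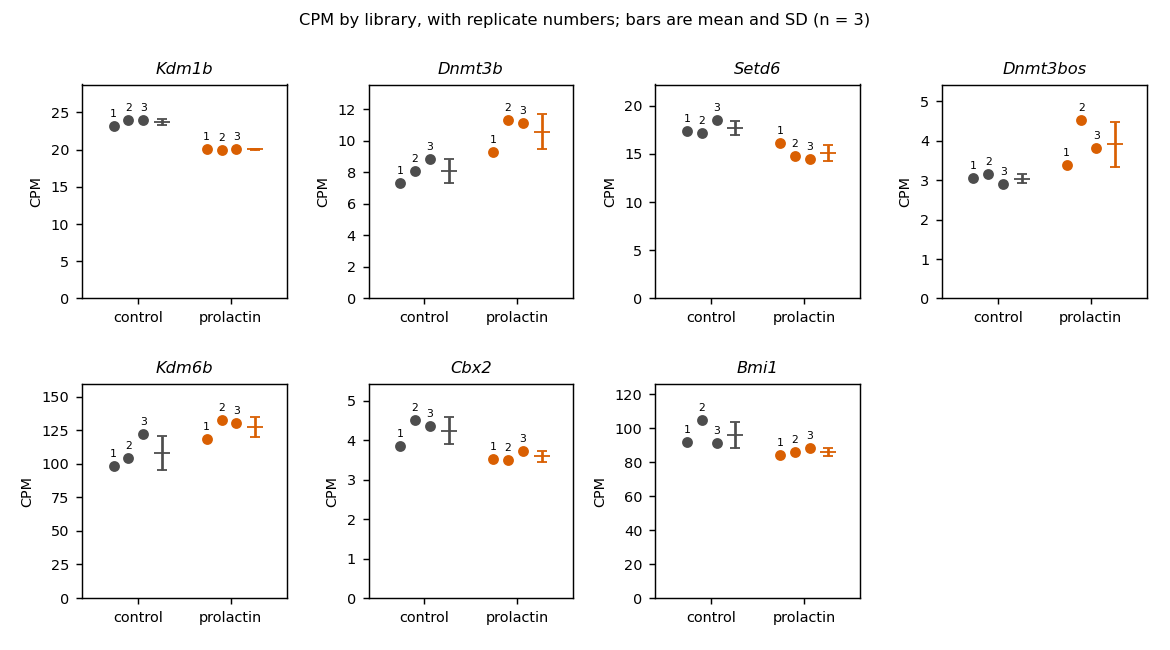
CPM (y axis, from 0) in each library for the 7 genes with an unadjusted p under 0.05, with control in grey and prolactin in orange. Numbers are replicates, and bars show mean and SD over 3 libraries. The prolactin libraries stand apart from the controls in 6 of the 7 panels, and in Kdm6b control replicate 3 falls among them. Picking genes by p from these same libraries favours such gaps. The groups were apart in 18.1% of the 72 tested genes and in 21.6% of all tested genes.

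Deacetylases of class I, some of which act in the Sin3, NuRD, CoREST and NCoR corepressors, had 4 negative changes of 4. None was past the threshold, and the median was -0.08. Without control replicate 2 the median was -0.05, with 3 of the 4 negative. Hdac3, the enzyme of the NCoR corepressor, measured 54.6, 53.9 and 53.6 CPM in control and 51.3, 52.0 and 51.2 CPM in prolactin. The prolactin libraries were all lower by a narrow gap, with a fitted difference of -4.71% (adjusted p = 0.535 for a log2 change of -0.07 with an SE of 0.0453). Hdac1 was the most abundant at 29.9 CPM per kilobase, the second highest mean level of all 74 genes, and measured 105, 108 and 97.3 CPM in control and 101, 104 and 103 CPM in prolactin. Its prolactin libraries lay inside the control range (adjusted p = 0.944 for a log2 change of -0.01 with an SE of 0.0558), and the change was 0.02 without control replicate 2. Hdac2 and Hdac8 had log2 changes of -0.08 and -0.11.

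The class IIa deacetylases are known for moving between nucleus and cytoplasm on signals and for weak catalysis of their own. Hdac5 was the most abundant of them (9.28 CPM per kilobase) and measured 74.1, 81.4 and 81.7 CPM in control and 82.5, 83.8 and 85.7 CPM in prolactin. Prolactin was higher in all 3 libraries, with control replicates 2 and 3 close below (adjusted p = 0.523 for a log2 change of 0.09 with an SE of 0.0556). Hdac4 measured 26.8, 31.1 and 33.7 CPM in control and 32.9, 32.7 and 32.7 CPM in prolactin, and control replicate 3 was above all prolactin libraries (adjusted p = 0.612 for a log2 change of 0.10 with an SE of 0.0796). The overlap was similar for Hdac7, at 25.9, 28.0 and 32.9 CPM in control and 29.2, 30.7 and 30.2 CPM in prolactin (adjusted p = 0.808 for a log2 change of 0.06 with an SE of 0.0836). Hdac9 was the sparsest deacetylase and measured 5.44, 5.58 and 5.09 CPM in control and 5.21, 5.38 and 5.21 CPM in prolactin (adjusted p = 0.905 for a log2 change of -0.03 with an SE of 0.0795). Their median change of 0.07 went to 0.00 without control replicate 1 and 0.14 without control replicate 3. Hdac4 overlaps Gm26720 and Hdac7 overlaps Slc48a1 on the other strand.

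Hdac6, which deacetylates tubulin, had the highest mean level of all 74 genes, 35.2 CPM per kilobase, with a range over the libraries (29.3 to 40.0) that overlapped that of Hdac1 (28.2 to 31.4). It measured 170.5, 198 and 206 CPM in control and 195, 228 and 232 CPM in prolactin. Prolactin replicates 2 and 3 were above all other libraries and prolactin replicate 1 was below control replicates 2 and 3 (adjusted p = 0.378 for a log2 change of 0.19 with an SE of 0.0909). Hdac10, known as a polyamine deacetylase, had a log2 change of -0.11, and Hdac11, the class IV enzyme, -0.02.

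The TET enzymes, which oxidise methylated cytosine, and the H3K27 acetyltransferases did not pass either. Tet2 was the most abundant of the first (3.97 CPM per kilobase) and measured 65.7, 59.3 and 73.0 CPM in control and 64.0, 69.6 and 69.7 CPM in prolactin (adjusted p = 0.865 for a log2 change of 0.04 with an SE of 0.0778). Tet3 measured 50.9, 55.8 and 66.9 CPM in control and 57.9, 63.0 and 60.4 CPM in prolactin (adjusted p = 0.806 for a log2 change of 0.06 with an SE of 0.0929). Control replicate 3 was the highest library of both genes, and their log2 changes were -0.04 (Tet2, without control replicate 2) and -0.02 (Tet3, without control replicate 1) when 1 control was left out. Tet1 was sparse at 0.998 CPM per kilobase and had a log2 change of 0.04. Crebbp measured 63.1, 68.9 and 75.7 CPM in control and 70.5, 80.5 and 80.6 CPM in prolactin. Prolactin replicates 2 and 3 were highest, while prolactin replicate 1 lay inside the control range (adjusted p = 0.411 for a log2 change of 0.16 with an SE of 0.0801). Ep300, more abundant per kilobase (10.8 against 5.41 CPM per kilobase), measured 134, 151 and 166 CPM in control and 151, 154 and 165 CPM in prolactin and overlapped (adjusted p = 0.785 for a log2 change of 0.06 with an SE of 0.0803).

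**Figure D3:**
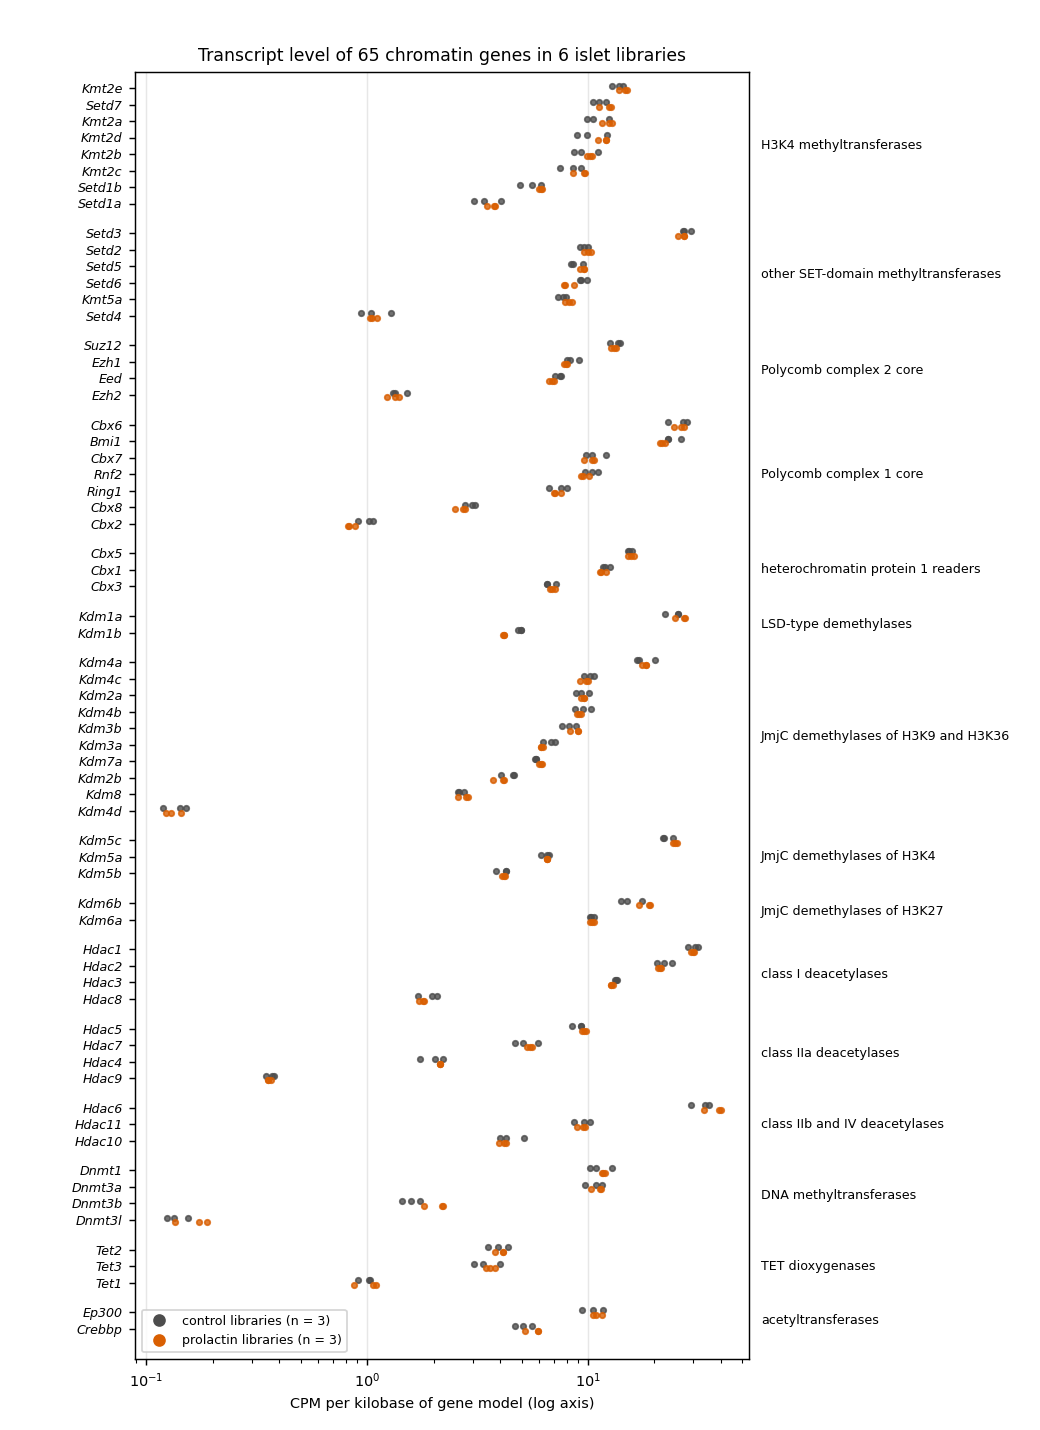
Level of 65 of the 66 tested enzyme and complex genes in CPM per kilobase of gene model (log x axis), grouped by class, with 1 point per library (control grey, prolactin orange, n = 3 each). Hdac6 and Hdac1, which overlap each other, lie at the top and Kdm4d and Dnmt3l at the bottom, and within a gene the 2 colours mostly overlap.

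Levels per kilobase use the full length of all exons in the gene model, so a gene with long rare exons reads low. On that scale the 66 tested enzyme and complex genes ran from 0.135 (Kdm4d) to 35.2 CPM per kilobase. After Hdac6 and Hdac1 came Setd3, Cbx6, Kdm1a, Kdm5c, Bmi1 and Hdac2, between 27.2 and 21.7. From Hdac6 to Hdac2 the ranges over the 6 libraries overlapped between neighbours. At the low end, Ezh2, Setd4, Tet1, Cbx2 and Hdac9 lay between 1.35 and 0.363. Of the antisense loci, pseudogenes and copies, Dnmt3bos was the only one above 1 CPM. Dnmt3aos, Dnmt3l-ps1, Dnmt3c-ps and Kdm4dl, at under 1 CPM, had log2 changes of 0.07, 0.49, -0.28 and 0.12 with adjusted p from 0.523 to 0.939. Dnmt3a-ps1 did not pass the filter, with 6 reads in control replicate 1 and 0 elsewhere. Pseudogenes and copies are close in sequence to their parents, so reads may be divided between them. Of the 74 names, 23 share exon bases with a gene on the other strand, and counting did not use strand. On the same strand, exons of Cbx6 overlap those of Npcd, and Setd1a, Kdm2b, Hdac5 and Ep300 each overlap another locus.

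Many of these genes shared a pattern among the libraries of 1 condition. Control replicate 1 was the lowest of the 6 libraries in 35 of the 65 genes averaging 1 CPM or more (53.8%), and control replicate 3 the highest in 23. Over all 14798 tested genes of at least 1 CPM these counts were 3484 (23.5%) and 3462. The median spread (SD of log2 CPM) over the 65 genes was 0.105 among controls and 0.054 among prolactin libraries, beside 0.101 and 0.053 over all tested genes of at least 1 CPM. Gene model length moved with this. Across the 65 genes, which share the same 6 libraries, Spearman's rho between length and the change was 0.49, with a median change of -0.05 in the 32 shorter and 0.07 in the 33 longer genes (divided at 6.49 kb); across all 14798 tested genes of at least 1 CPM it was 0.05. Between control replicate 1 and the mean of the other controls, rho with length was -0.36 across the 65 and -0.17 across all 14798. The part of length and of control replicate 1 in the class differences was not tested.

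**Figure D4:**
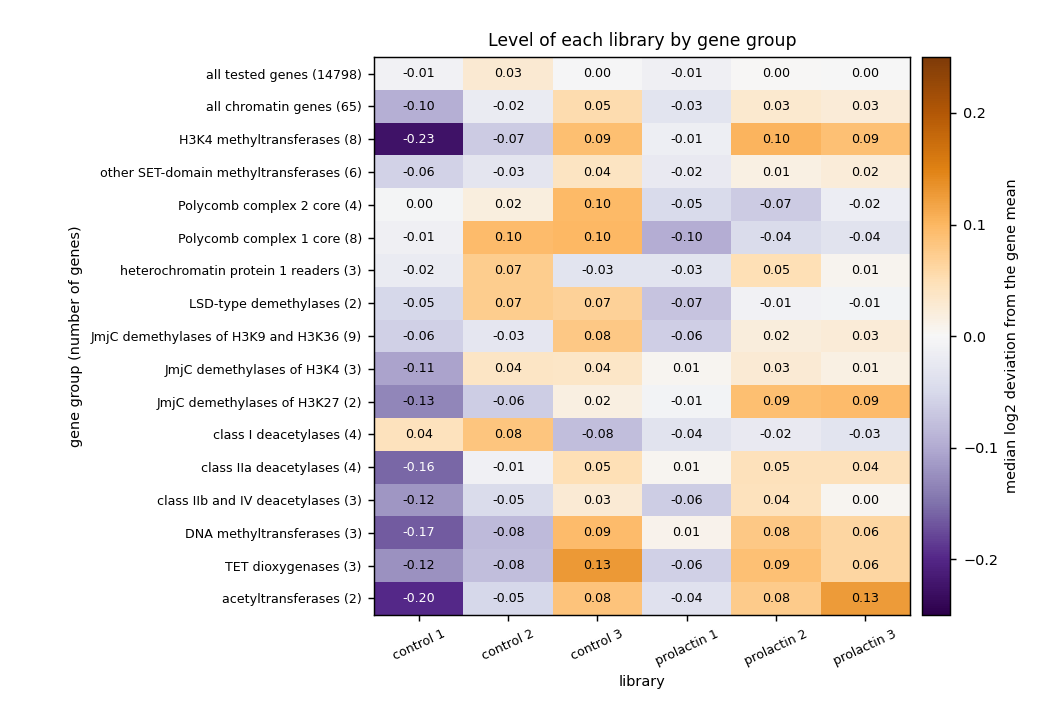
Median log2 deviation of each library (x axis) from a gene's mean over the 6 libraries, for all tested genes, for the chromatin genes and for their classes (y axis, number of genes of at least 1 CPM in brackets). Control replicate 1 is lowest for H3K4 methyltransferases (-0.23). The 2 Polycomb classes, the LSD-type demethylases and the class I deacetylases are below 0 in all prolactin libraries.

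Of 9 lists of cell type markers, 4 had summed levels that did not overlap between the conditions. The summed level of 8 fibroblast and pericyte markers was 337 to 505 CPM in control and 695 to 867 CPM in prolactin, with 2 of the 8 called. The 4 markers of delta and PP cells summed to 5791 to 5978 and 3645 to 4585 CPM (1 called), the 6 endothelial markers to 226 to 257 and 263 to 271 CPM (1 called), and the 8 markers of dividing cells to 146 to 171 and 128 to 142 CPM (0 called). Genes called made up 0.757% of all tested genes. The sums of the other 5 lists overlapped: alpha cell markers at 23310 to 37280 and 34920 to 36280 CPM (1 of 6 called), duct markers at 953 to 1524 and 1224 to 1760 CPM, leukocyte markers at 94.4 to 108 and 94.0 to 105 CPM, and the beta cell and acinar markers given above (0 called in these 4). No marker of the 9 lists was at 0 in all libraries. Of the tested family members, 13 (18.1%) separated the conditions as these 4 lists did, against 21.6% of all tested genes. Kdm1b, Dnmt3b, Setd6, Cbx2 and Bmi1 were among the 13, and the part of the lists in their values was not tested.

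Among genes of partner proteins the share that passed was near that of all genes. Of 100 tested partners in 9 lists, 1 passed (0.757% of all tested genes did): Chd3, a helicase of the NuRD deacetylase complex, which rose. An unadjusted p under 0.05 was reached by 7 higher and 3 lower partners, against 7.78% and 6.68% of all tested genes. Chd3 measured 169, 181 and 183 CPM in control and 219, 232 and 232 CPM in prolactin. The groups were well apart, with means and SDs of 178 ± 7.70 CPM in control and 228 ± 7.59 CPM in prolactin, and the test gave an adjusted p = 0.0319 for a log2 change of 0.36. The call was lost without control replicate 1 or 2 or any prolactin library (adjusted p = 0.0578, 0.0892, 0.0676, 0.215 and 0.204 in that order) and with prolactin replicates 2 and 3 summed (adjusted p = 0.216), at log2 changes of 0.33 to 0.39. In its list of 20 corepressor subunits 17 changes were positive with a median of 0.10, and Mbd3, another NuRD subunit, had a log2 change of 0.23 (adjusted p = 0.114). No partner fell. The genes with the smallest p of the other lists were Rbbp5 of the COMPASS complexes of H3K4 methylation (log2 change -0.12, adjusted p = 0.282), Jarid2 (0.08, 0.586) of complex 2, Phc2 (0.11, 0.428) of complex 1, Setdb2 (-0.14, 0.35) of the other methyltransferases and Hr (0.22, 0.34) of the other demethylases. They were Hat1 (-0.14, 0.327) among acetyltransferases, Sirt7 (-0.21, 0.209) among sirtuins, and Uhrf2 (0.14, 0.213) among readers of DNA methylation.

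Matches to 2 short motifs were looked for in the 76 promoters on both strands. TTCNNNGAA, the palindrome that STAT5 is known to bind, stood in 6 of them (7.89%), against 8.3% of all 32851 promoters; these were 2 promoters of Hdac7 and 1 each of Kmt2d, Setd7, Kdm3a and Dnmt3l. CCGTTA, the core bound by OVOL factors, stood in 2 (2.63%), which overlap at Kdm2b and hold the same match, against 2.76% of all. For each of Hdac7, Kmt2d and Setd7, the deacetylase and the H3K4 methyltransferases among these genes, 1 match is shown with 10 bases on each side. For Hdac7 the match nearest to a start site was picked; the same promoter holds another at position -141, and a further promoter holds 1 at -222. Capitals mark the motif, and the position of its first base counts from the start site.
Hdac7 at position -46 of chr15:97831718-97832017, minus strand: gtatctgggtTTCCGGGAAttgtgcgcgg
Kmt2d at position -57 of chr15:98871156-98871455, minus strand: cctggggctgTTCATGGAAacctaaactg
Setd7 at position -114 of chr3:51560774-51561073, minus strand: ggatcctcacTTCTGGGAAaggacaggga
None of the 3 passed the test of prolactin against control, and a match of letters is a description, not a site of binding. The promoters of Kdm1b, Dnmt3b and Setd6 printed above hold neither motif.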

How the data were processed

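Islet polyadenylated RNA gave 6 libraries, 3 per condition, per the labels. The authors deposited raw counts for each gene name and, as another quantity, the length of its merged exons; per the file headers, featureCounts 2.0.3 made them from GENCODE vM10 models with an option for paired reads and none for strand. Tools named by the submitters' processing notes are SAMtools 1.21, Subread 2.1.0 and DESeq2, with the mm10 build; the aligner is not given in these sources. Even counts made up 53.9% to 56.3% of the counts from 1 to 20, so mates of a pair may both be counted, and no interval from counts alone is given. In the authors' deposited table each gene has a log2 fold change and its error, a p-value, a test score and a mean signal, per the file headers.

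The counts were fitted with edgeR 4.0.16 in R 4.3.3 (TMM scaling; minimum count 10, minimum total 15, which kept 23924 of 48397 names; quasi-likelihood test, two-sided; condition as the only term). The SE comes from the test statistic, and the 95% interval from it and the t distribution. Levels between genes are CPM per kilobase of gene model. limma 3.58.1 and DESeq2 1.42.0 were alternatives. The fit was tested on simulated counts with genes changed by known amounts. It recovered 5.2% of genes changed by a log2 of 0.25, 66.8% at 0.5 and 96% at 1. Of its calls there, 8.47% were unchanged genes. Changes of the size seen in most of the 72 genes would thus mostly go uncalled. Promoters are RefSeq's, GRCm38.p6; 3 list names matched through a synonym. The class of antisense loci, pseudogenes and copies was added after the gene names were seen.

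Genes, lists and classes were chosen with earlier results of these data known. Values are given per library for genes with an unadjusted p under 0.05, for the smallest p and the highest level of each class, and for Dnmt3a, Dnmt3b, Ezh2, Kdm6b and class IIa deacetylases; others are named by class. The values of 1 gene are not reported here, though it stays in the fit and in the counts.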

Additional observations from a re-analysis of the deposited data

How the results depend on the processing

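Under 17 alternatives, 0 of the 72 genes passed in 12, and 1 to 3 in the other 5. Genes called higher numbered 1 with no filter (Dnmt3b), 2 with DESeq2 (Dnmt3b and Dnmt3bos) and 1 with the replicate block (Dnmt3b, adjusted p = 0.03). Leaving out 1 library gave 0 to 1, the 1 being Kdm6b without control replicate 3. Genes called lower numbered 1 with DESeq2 and 1 with the filter of 1 CPM in 3 libraries, Kdm1b in both, and 0 to 0 without single libraries. Without control replicate 3, an unadjusted p under 0.05 was reached by 21 higher and 7 lower genes. Calls rose over all tested genes too in that fit, to 342 higher and 234 lower at an adjusted p under 0.05. With all libraries these were 156 and 25. The share of all genes at an unadjusted p was not taken in that fit, so the 21 and 7 cannot be compared with it.

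Over all genes, 156 higher and 25 lower became 470 and 127 with no filter, 776 and 303 with DESeq2, 464 and 134 with the replicate block, and 42 and 2 when prolactin replicates 2 and 3, the closest pair, were summed. The 1 CPM filter gave 46 lower, and leaving out 1 library 39 to 342 higher and 1 to 234 lower. The labels do not say whether replicate numbers pair these samples. Deviations from the group mean correlated by 0.394, 0.243 and -0.0363 for same-numbered libraries, and by -0.357 to 0.299 for differently numbered ones. Such correlations cannot settle whether animals or days were shared.

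The median change of DNA methyltransferases was 0.058 under the 1 CPM filter. That of antisense loci, pseudogenes and copies, 0.10, was 0.37 there, 0.219 with halved counts, and -0.078 to 0.289 without 1 library. Without 1 library the medians ran from -0.023 to 0.088 for other SET-domain enzymes, from -0.105 to -0.029 for Polycomb complex 2 and from -0.053 to 0.045 for JmjC demethylases of H3K9 and H3K36. Signs of changes near 0 turned: Cbx6 was 0.006 with upper-quartile scaling and 0.002 with the 1 CPM filter, and without 1 library the changes ran from -0.006 to 0.034 for Cbx5, -0.084 to 0.048 for Cbx6, -0.016 to 0.154 for Dnmt1, -0.024 to 0.103 for Dnmt3a, -0.016 to 0.136 for Ep300, -0.055 to 0.020 for Hdac1, -0.018 to 0.158 for Hdac7, -0.039 to 0.103 for Kdm4a, -0.035 to 0.116 for Tet2, -0.021 to 0.180 for Tet3. The cause of these moves was not tested. Loci under 1 CPM rest on few reads, and their intervals are wide.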
